A study of Drosophila melanogaster with 53 samples.

Results

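Drosophila S2 cells treated for 1 h with 20-hydroxyecdysone (20E) were compared with cells in DMSO. With 1 added to FPKM, 83 of the 15598 genes in the deposited table (0.532%) stood between 1.5 and 2 times their DMSO level. These genes were chosen by their own RNA-seq values, as those with a ratio of (20E FPKM + 1) to (DMSO FPKM + 1) above 1.5 and at most 2, after leaving out the transporter gene CG1607, which would otherwise qualify (ratio 1.68), and the loci of the mitochondrial genome, of which 0 fell in the range. The values of this contrast are therefore a description of the chosen genes and carry no test. FPKM scales sequenced fragments by transcript length and library depth, so it can be compared between genes as a level per length.

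The treated cells received 0.3 µM 20E for 1 h and the control cells the solvent DMSO for 1 h. S2 cells are a hemocyte-like line from Drosophila embryos, and no double-stranded RNA against a transcript was added for these libraries. The labels list 2 libraries per condition, among 53 samples of which the other 49 are chromatin immunoprecipitation libraries or their inputs and were not analysed here. The table holds 1 value per condition with a lower and an upper bound from the authors, of unstated level, so no spread between libraries could be given, the differences have no replicate check and no p-value was computed. RNA from a culture does not tell apart more cells that express a gene from more RNA per cell.

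20E is the active insect steroid hormone, which is released in pulses and drives moulting and metamorphosis. It binds the ecdysone receptor, a heterodimer of EcR and Usp, which sits on DNA at imperfect inverted repeats of a short motif of 6 bases, the hexamer, and turns on a first set of early genes within an hour, many of them transcription factors that in turn act on late genes. Known targets in various tissues also include cell death genes, small heat shock genes and metabolic genes.

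The hemocyte genes srp (115.2 FPKM in 20E and 105.9 FPKM in DMSO), Pxn (96.9 FPKM in 20E and 93.3 FPKM in DMSO) and crq (110.3 FPKM in 20E and 117 FPKM in DMSO) were present, while Hml was near 0 in both (0.0944 FPKM in 20E and 0.104 FPKM in DMSO). In the list of hemocyte genes, 16 of 20 measured reached 1 FPKM in 20E or DMSO. Of 22 measured marker genes of germline, neuron, muscle, gut and other cells, 4 reached 1 FPKM and 0 were in the moderate group. These were aub (98.2 FPKM in 20E and 101.1 FPKM in DMSO), bam (31.8 and 26.4), elav (3.66 and 3.63) and piwi (1.96 and 2.62). The summed level of the 22 was 138.0 FPKM in 20E and 136.4 FPKM in DMSO. The depth is not stated. Low values of genes with 1 transcript lay within 0.15 of a whole step in 80.5% of cases in 20E and 90.0% in DMSO. The steps and a length correction were chosen to make these shares as high as possible. Chance would give 30% for a step fixed beforehand, so that share is not a like comparison. The chosen steps made 1 FPKM worth 1.49 times as many fragments in 20E as in DMSO. Whether they stand for single fragments was not tested.

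By rank of the ratio, the 83 genes stood at places 47 to 130 of the table, below 46 genes with a ratio above 2 (0.295% of all genes). Their median log2 difference was 0.71, against 0.00 over all genes and over the 7703 genes that reached 1 FPKM in 20E or DMSO. In the opposite direction, 36 genes had a ratio from 1/2 to under 1/1.5, or 0.231% of all. At the lower end, CG3829 (ratio 1.504), CG13897 (1.511) and spri (1.512) were just inside, and shep (1.495), Fps85D (1.494) and pncr008:3L (1.493) were just outside. At the upper end, CG4502 (1.958), CG14742 (1.957) and MED9 (1.954) were inside, and CR43967 (2.036), Eip71CD (2.037) and CG43965 (2.045) outside.

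**Figure D1:**
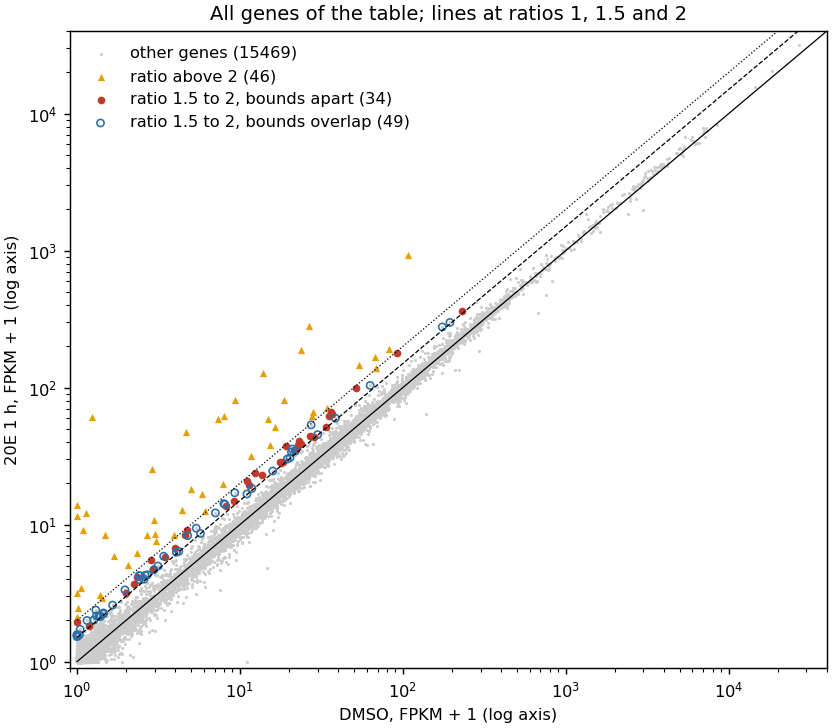
Level of each of the 15598 genes in 20E (vertical, FPKM + 1, log axis) against its level in DMSO (horizontal, FPKM + 1, log axis), with lines at ratios of 1, 1.5 and 2. The 83 genes between the upper lines are split into 34 whose bounds do not overlap (filled circles), which reach from low to high levels, and 49 whose bounds overlap (open circles), which lie mostly at low levels, and 46 genes lie above a ratio of 2 (triangles).

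For 34 of the 83 genes the lower bound in 20E lay above the upper bound in DMSO, called bounds apart here, and for 49 the bounds overlapped. Bounds were apart in that direction for 67 genes of the whole table (0.43%), of which 31 had a ratio above 2 and 1 a ratio of 1.5 or less. CG1607, left out by the rule, was also among the 67. Since the rule and the bounds use the same values, the count was read only as a sorting of the 83 genes by precision. In the opposite direction, 12 genes of the table had bounds apart (0.0769%), 5 of them with a ratio from 1/2 to under 1/1.5.

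The median level of the 83 genes was 8.42 FPKM in 20E (quartiles 2.83 and 33.7) and 4.72 FPKM in DMSO (quartiles 1.30 and 19.8), and the highest was 359 FPKM in 20E and 230.1 FPKM in DMSO. Genes above a ratio of 2 had a median of 17.9 FPKM in 20E and 3.81 FPKM in DMSO. The median in DMSO was 0.752 FPKM over all genes and 26.7 FPKM over the genes that reached 1 FPKM in 20E or DMSO. The 34 genes with bounds apart had a median DMSO level of 14.7 FPKM, and the 49 others 2.14 FPKM. Of the 5 genes listed at 0 in DMSO, 1 had bounds apart, as did 2 of 15 above 0 and up to 1 FPKM, 8 of 22 up to 5 FPKM, 10 of 21 up to 20 FPKM and 13 of 20 above 20 FPKM. Without the added 1, the 78 genes above 0 in DMSO differed by a median of 1.90 times, and 32 genes exceeded 2 times when the 5 at 0 were counted in. Summed over the 83 genes, the level was 2571 FPKM in 20E and 1524 FPKM in DMSO.

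**Figure D2:**
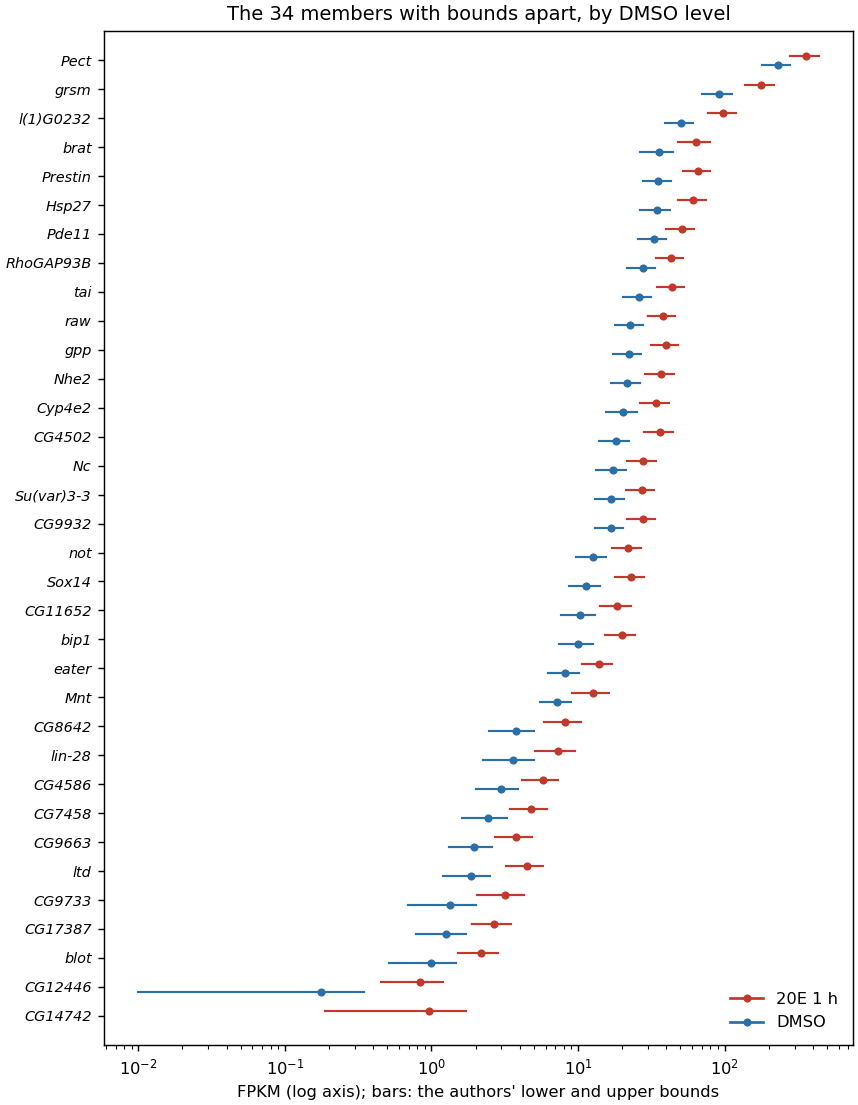
FPKM (horizontal, log axis) of the 34 genes with bounds apart in 20E and in DMSO, each as a point with the authors' lower and upper bounds as a bar, and genes ordered by DMSO level. Pect is the highest, with 359 FPKM in 20E and 230.1 FPKM in DMSO, and CG14742 has no DMSO point because it is listed at 0.

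The genes were sorted by what they are known to do, after their values had been seen, and 35 of the 83 were given no role. Of the 11 genes of transcription and chromatin, 8 had bounds apart. The transcription factor gene Sox14, a known ecdysone-responsive gene whose product is needed for pruning of neurons at metamorphosis, had 22.9 FPKM in 20E (bounds 17.8 and 28.01), against 11.4 FPKM in DMSO (bounds 8.70 and 14.01). tai encodes the coactivator taiman of the ecdysone receptor itself, and its level was 43.7 FPKM in 20E (bounds 34.4 and 52.98) and 25.96 FPKM in DMSO (bounds 20.4 and 31.5). Mnt, a partner of Max that represses transcription and opposes Myc, stood at 12.7 FPKM in 20E (bounds 9.10 and 16.4) and 7.24 FPKM in DMSO (bounds 5.48 and 8.998). The bounds of all 3 genes were apart.

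The other genes of transcription and chromatin included gpp, the histone H3 methyltransferase of the Dot1 family. Its level was 39.8 FPKM in 20E (bounds 31.3 and 48.4) and 22.2 FPKM in DMSO (bounds 17.4 and 26.95). The ubiquitin protease gene not, whose product non-stop works in the SAGA coactivator complex, had 21.9 FPKM in 20E (bounds 17.00 and 26.9), against 12.6 FPKM in DMSO (bounds 9.62 and 15.6). For Su(var)3-3, the Drosophila Lsd1 histone demethylase, the level was 27.3 FPKM in 20E (bounds 21.4 and 33.2) and 16.9 FPKM in DMSO (bounds 13.1 and 20.6). The zinc finger gene CG9932 had 27.6 FPKM in 20E (bounds 21.7 and 33.4), against 16.7 FPKM in DMSO (bounds 13.1 and 20.3). bip1 had 19.9 FPKM in 20E (bounds 15.3 and 24.6), against 9.98 FPKM in DMSO (bounds 7.40 and 12.6). These 5 also had bounds apart, while those of MED9, a subunit of the Mediator complex, of Glut4EF and of CG13897 overlapped, MED9 being at 52.5 FPKM in 20E and 26.4 FPKM in DMSO with bounds of 12.96 and 91.98 FPKM in 20E and 7.92 and 44.8 FPKM in DMSO.

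Signalling, cell cycle and cell death took in 8 genes, 5 with bounds apart. Nc, also called Dronc, encodes the initiator caspase of Drosophila and had 27.8 FPKM in 20E (bounds 21.6 and 34.1), against 17.3 FPKM in DMSO (bounds 13.2 and 21.3). Of 24 measured genes in a list of cell death and autophagy genes, Nc was the only one in the moderate range and also the only one with bounds apart. The 300 bases around its RefSeq start in genome Release 6 (chr3L:9968229-9968528, plus strand, 250 bases before the start and 50 after it) are shown because ecdysone control of this caspase gene is known from other tissues, with the hexamer GGTTCA in capitals.
Nc: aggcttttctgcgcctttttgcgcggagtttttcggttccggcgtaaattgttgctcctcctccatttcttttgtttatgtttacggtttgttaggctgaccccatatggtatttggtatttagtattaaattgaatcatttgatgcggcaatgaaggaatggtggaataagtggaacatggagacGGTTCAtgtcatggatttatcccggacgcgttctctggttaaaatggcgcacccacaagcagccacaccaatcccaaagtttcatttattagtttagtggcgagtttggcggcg
The hexamer lies 64 bases before the start.

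The highest level among the signalling genes was that of l(1)G0232, the protein tyrosine phosphatase gene now named Ptpmeg2, with 98.04 FPKM in 20E (bounds 76.5 and 119.6), against 50.2 FPKM in DMSO (bounds 39.2 and 61.3). raw, which restrains JNK signalling during dorsal closure of the embryo, had 37.9 FPKM in 20E (bounds 29.9 and 46.00), against 22.8 FPKM in DMSO (bounds 17.8 and 27.7). Pde11 encodes a cyclic nucleotide phosphodiesterase and stood at 50.9 FPKM in 20E (bounds 39.9 and 61.8) and 32.8 FPKM in DMSO (bounds 25.7 and 39.9). For RhoGAP93B, a protein that acts in axon guidance, the level was 42.95 FPKM in 20E (bounds 33.8 and 52.1) and 27.7 FPKM in DMSO (bounds 21.8 and 33.6). The bounds of spri, a Ras and Rab effector, overlapped by a small margin, with 44.4 FPKM in 20E (bounds 34.5 and 54.3), against 29.02 FPKM in DMSO (bounds 22.2 and 35.8). cdc2c, the Drosophila Cdk2 kinase gene of the cell cycle, had 58.9 FPKM in 20E (bounds 43.9 and 73.8), against 37.5 FPKM in DMSO (bounds 28.01 and 47.1) and was the only one of 26 measured cell cycle genes in the moderate range. T48, which helps cells to constrict at gastrulation, had 3.26 FPKM in 20E and 1.62 FPKM in DMSO and overlapping bounds.

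Transport gave 6 genes, of which 5 had bounds apart. The anion transporter gene Prestin of the SLC26 family had 65.7 FPKM in 20E (bounds 51.7 and 79.7), against 35.3 FPKM in DMSO (bounds 27.7 and 42.9). Nhe2, a sodium and proton exchanger, had 36.9 FPKM in 20E (bounds 28.7 and 44.97), against 21.7 FPKM in DMSO (bounds 16.9 and 26.5). The bounds of 3 low genes of this class were apart as well. CG7458, of the organic cation transporter family, had 4.81 FPKM in 20E (bounds 3.45 and 6.18), against 2.44 FPKM in DMSO (bounds 1.61 and 3.27). The ABC transporter gene CG9663 had 3.78 FPKM in 20E (bounds 2.73 and 4.83), against 1.94 FPKM in DMSO (bounds 1.31 and 2.58). blot, of the SLC6 transporter family, had 2.17 FPKM in 20E (bounds 1.51 and 2.83), against 0.992 FPKM in DMSO (bounds 0.513 and 1.47). The bounds of the trehalose transporter paralog Tret1-2 overlapped, and its level was 33.5 FPKM in 20E (bounds 17.7 and 49.4) and 20.96 FPKM in DMSO (bounds 11.7 and 30.3).

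Of 5 genes of lipid metabolism, 2 had bounds apart. Pect, the enzyme that makes CDP-ethanolamine for phosphatidylethanolamine synthesis, was the most abundant of the 83 genes, with 359 FPKM in 20E (bounds 280.2 and 438), against 230.1 FPKM in DMSO (bounds 180.5 and 279.7). CG4586, of the acyl-CoA oxidase family of fatty acid oxidation, had 5.74 FPKM in 20E (bounds 4.17 and 7.31), against 2.97 FPKM in DMSO (bounds 2.02 and 3.91). The acyl-CoA binding protein gene CG8498 was high in both conditions but its bounds overlapped, with 276 FPKM in 20E (bounds 194 and 359), against 174 FPKM in DMSO (bounds 117 and 231). bwa, an alkaline ceramidase, had 32.9 FPKM in 20E and 19.7 FPKM in DMSO, and CG18031, the fatty acyl reductase gene now named FarO, had 2.34 FPKM in 20E and 0.968 FPKM in DMSO, both with overlapping bounds.

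Among 8 genes of chaperones, phagocytosis, vesicles and enzymes, 5 had bounds apart. The small heat shock gene Hsp27, long known as an ecdysone-responsive gene, had 61.3 FPKM in 20E (bounds 47.7 and 74.9), against 34.5 FPKM in DMSO (bounds 26.4 and 42.5). It was the only one of 31 measured heat shock and stress genes in the moderate range, 25 of which reached 1 FPKM, and the median log2 difference of those 25 was -0.05. Its fellow small heat shock genes lay elsewhere, with ratios below 1 for Hsp22, Hsp23 and Hsp26. eater, a phagocytic receptor of hemocytes, had 13.8 FPKM in 20E (bounds 10.6 and 17.00), against 8.20 FPKM in DMSO (bounds 6.21 and 10.2). The leucyl aminopeptidase gene grsm had 178 FPKM in 20E (bounds 138 and 218), against 91.4 FPKM in DMSO (bounds 69.8 and 113). The cytochrome P450 gene Cyp4e2 had 33.95 FPKM in 20E (bounds 26.3 and 41.6), against 20.4 FPKM in DMSO (bounds 15.6 and 25.2). ltd, the Rab32 GTPase of lysosome-related organelles, had 4.48 FPKM in 20E (bounds 3.22 and 5.74), against 1.85 FPKM in DMSO (bounds 1.19 and 2.51). The bounds of 3 genes overlapped, namely muted, a subunit of the vesicle trafficking complex BLOC-1, at 29.8 FPKM in 20E and 19.3 FPKM in DMSO, CG3829, of the CD36 scavenger receptor family, at 7.61 FPKM in 20E and 4.72 FPKM in DMSO, and the carbonic anhydrase gene CG6074, at 1.13 FPKM in 20E and 0.363 FPKM in DMSO.

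RNA binding and translation held 7 genes, 3 with bounds apart. brat, a translational repressor that restrains growth and neural stem cell fate, had 63.4 FPKM in 20E (bounds 47.7 and 79.02), against 35.6 FPKM in DMSO (bounds 26.5 and 44.7). lin-28, whose product binds let-7 precursors, had 7.33 FPKM in 20E (bounds 5.09 and 9.57), against 3.62 FPKM in DMSO (bounds 2.26 and 4.98). CG11652, the diphthamide synthesis gene now named Dph1, had 18.5 FPKM in 20E (bounds 14.1 and 22.9), against 10.3 FPKM in DMSO (bounds 7.66 and 12.99). The RNA-binding protein gene CG17838, now Syp, stood at 103 FPKM in 20E (bounds 77.7 and 128) and 62.03 FPKM in DMSO (bounds 46.1 and 77.9), so its bounds met and overlapped by a little. Lsm10, a component of the U7 particle that processes histone transcripts, had 16.1 FPKM in 20E and 8.29 FPKM in DMSO with overlapping bounds, as did CG33082 and the ribosomal protein paralog RpL37b. None of the 3 noncoding RNA genes, CR43637, CR43889 and CR43981, had bounds apart, with levels of 7.32 to 13.2 FPKM in 20E and 3.77 to 6.97 FPKM in DMSO.

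Of the 35 genes without an assigned role, 6 had bounds apart. CG4502 had 36.4 FPKM in 20E (bounds 28.4 and 44.5), against 18.1 FPKM in DMSO (bounds 13.9 and 22.3). CG8642 had 8.13 FPKM in 20E (bounds 5.87 and 10.4), against 3.75 FPKM in DMSO (bounds 2.48 and 5.01). The next 3 were below 4 FPKM in both conditions. CG9733 had 3.16 FPKM in 20E (bounds 2.03 and 4.29), against 1.35 FPKM in DMSO (bounds 0.693 and 2.001). CG17387 had 2.69 FPKM in 20E (bounds 1.88 and 3.49), against 1.25 FPKM in DMSO (bounds 0.784 and 1.72). CG12446 had 0.831 FPKM in 20E (bounds 0.455 and 1.21), against 0.177 FPKM in DMSO (bounds 0.00969 and 0.345). CG14742 had 0.957 FPKM in 20E and 0 FPKM in DMSO, with bounds of 0.187 and 1.73 FPKM in 20E and of 0 and 0 in DMSO, so that any lower bound above 0 in 20E set its bounds apart. The other genes listed at 0 in DMSO had overlapping bounds, with 0.576 FPKM in 20E for CG13121, 0.557 FPKM for CG32712, 0.550 FPKM for CG34212 and 0.519 FPKM for RpL37b, so no fold was computed for them. CG31777 was the most abundant of the 35, with 298 FPKM in 20E (bounds 231 and 365), against 194 FPKM in DMSO (bounds 149 and 239), and its bounds overlapped. The median of the 35 was 2.97 FPKM in 20E and 1.35 FPKM in DMSO, the lowest of the classes, against 22.9 FPKM in 20E and 12.6 FPKM in DMSO for transcription and chromatin.

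The 18 gene lists for known pathways and cell types are described by their counts, beside the 0.532% of all genes that were in the moderate range. Of 32 measured genes of the ecdysone cascade, tai was the only one there, while 11 had a ratio above 2 and 12 had bounds apart, and the 25 at 1 FPKM or more had a median log2 difference of 0.29. Of 26 measured insulin and TOR genes only Mnt was in the range, with InR at a ratio of 1.43 and foxo at 1.30 below it, and of 20 measured hemocyte genes only eater. Lists of AP-1 and JNK genes, Ras and MAPK genes, the Notch pathway, immune genes, and Wnt, Hedgehog and BMP genes held 0. So did the lists of cytoskeleton and matrix, the circadian clock, lipid metabolism, transporters, Pol II pausing and elongation, and ribosomal or nucleolar genes. A ratio above 2 was found for 1 gene each in the clock, lipid and ribosomal lists and for 2 in the transporter list. The transporter list includes CG1607, which the rule left out, so its count was partly set by the rule. The lipid and transporter lists do not include the 5 lipid and 6 transport genes described above.

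In the table a locus is a stretch of the genome that can hold several overlapping genes, whose reads may be divided between them, and 41.4% of all genes share one. Of the 44 moderate genes alone in their locus 27 had bounds apart, and of the 39 that shared one 7 did. Those 7 were brat, Cyp4e2, blot, l(1)G0232, Pect, grsm and tai. The longest annotated transcript also differed, with a median of 2916.5 bases for the genes with bounds apart and 835 bases for the others. It was under 1000 bases for 1 gene with bounds apart and for 28 of the others. Over all genes with a known length the median was 1511 bases, and 4757 of 14874 were under 1000 bases. Of the moderate genes, 29 of 82 were. The part of transcript length and of overlapping genes in the split by bounds was not tested.

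For each of the 39, the ratio was also computed on the sum over all genes of the locus. It was above 1.5 for 16, between 1.1 and 1.5 for 9, and at most 1.1 for 14. Where the gene held nearly the whole sum, as for Cyp4e2 and Pect, this ratio repeats the one used to choose it. For CG14589 (ratio of the sum 2.44) and CG11125 (3.95) the locus also holds a gene above a ratio of 2. CG18031 and CR43637 share a locus, which was counted for each. The 16 are therefore no check on reads divided between genes. For 25 of the 39 the gene held under 50% of the summed level in DMSO. MED9 had 52.5 FPKM in 20E and 26.4 FPKM in DMSO, while CG42518, the other gene of the locus, had 37.1 FPKM in 20E and 59.1 FPKM in DMSO, so that the sum was 89.6 FPKM in 20E and 85.5 FPKM in DMSO. For muted the sum was 95.9 FPKM in 20E and 92.8 FPKM in DMSO, and for CG13897 it was 52.3 FPKM in 20E and 64.2 FPKM in DMSO, with a ratio of 0.818. For tai and l(1)G0232 the gene held 99.9% and 99.8% of the sum in DMSO. The ratios of the sum, 1.66 and 1.93, therefore only repeat those of the genes. For grsm, which held 66.6% of the sum in DMSO, the ratio of the sum was 1.63. The other genes of its locus had 46.5 FPKM in 20E and 45.8 FPKM in DMSO. The part of the other genes of the locus in the values of MED9, muted and CG13897 was not tested.

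**Figure D3:**
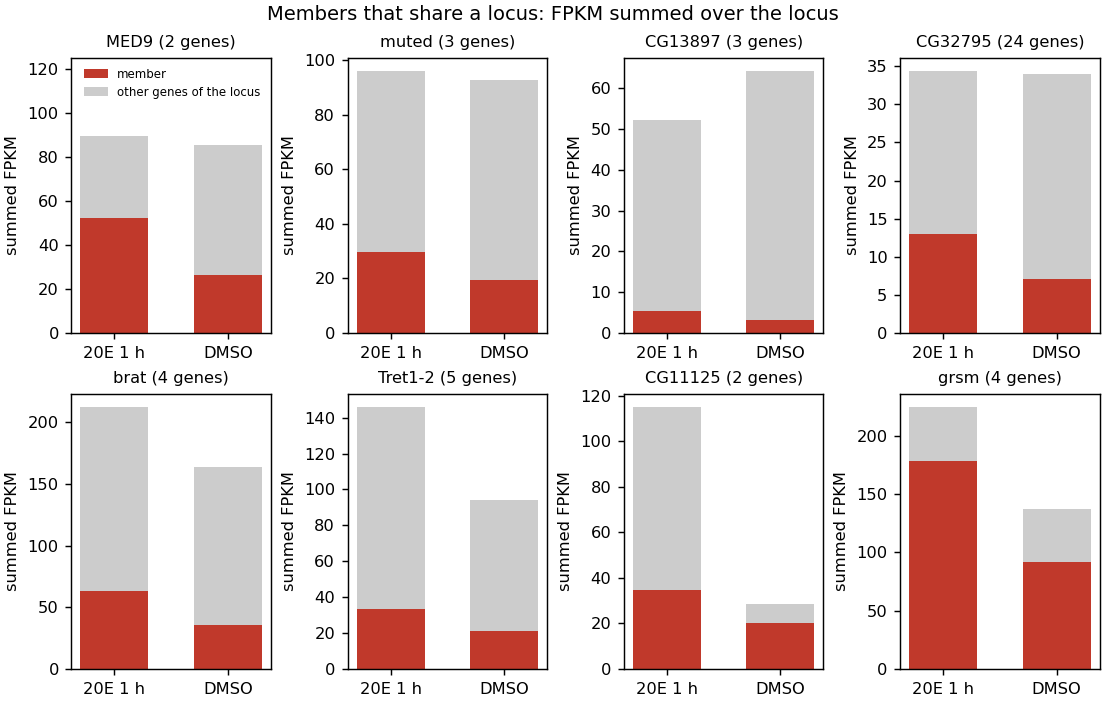
FPKM summed over the genes of a locus (vertical) in 20E and in DMSO for 8 loci that hold a moderate gene, with the moderate gene in red and the other genes of the locus in grey. The sums are nearly equal for MED9 (89.6 FPKM in 20E and 85.5 FPKM in DMSO) and for muted and CG32795, lower in 20E for CG13897, and higher in 20E for brat, Tret1-2, CG11125 and grsm.

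Some moderate genes lay beside a gene with a higher ratio. A gene with a ratio above 2 was in the same locus or at most 10 kb away for 10 of the 83 (12.0%), against 2.23% of all genes and 2.36% of genes that reached 1 FPKM. CG14589 shares a locus with EcR, the ecdysone receptor gene, which had 37.4 FPKM in 20E and 14.3 FPKM in DMSO, and itself had 4.88 FPKM in 20E and 2.40 FPKM in DMSO. CG3587 lay 403 bases from Hr4, a nuclear receptor gene of the cascade with 11.1 FPKM in 20E and 0.138 FPKM in DMSO, and itself had 17.3 FPKM in 20E (bounds 12.9 and 21.8), against 10.8 FPKM in DMSO (bounds 7.82 and 13.9). CG11125, with 34.6 FPKM in 20E and 19.97 FPKM in DMSO, shares a locus with the fatty acid hydroxylase gene fa2h, which had 80.2 FPKM in 20E and 8.38 FPKM in DMSO, and Tret1-2 one with its paralog Tret1-1, which had 50.2 FPKM in 20E and 15.4 FPKM in DMSO. Closely related copies can share reads, so the value of Tret1-2 is uncertain.

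Of the other 6 neighbours, 5 were in another locus than the moderate gene. Su(var)3-3 lay 1418 bases from CG13813, which had 59.8 FPKM in 20E and 0.236 FPKM in DMSO, and gpp lay 965 bases from CG1021, with 165 FPKM in 20E and 66.1 FPKM in DMSO. CG8642 lay 445 bases from rgr (65.3 FPKM in 20E and 27.2 FPKM in DMSO) and CG43389, at 1.22 FPKM in 20E and 0.450 FPKM in DMSO, lay 327 bases from the noncoding RNA gene CR43626 (279 FPKM in 20E and 25.6 FPKM in DMSO). CG7079, at 1.15 FPKM in 20E and 0.315 FPKM in DMSO, was 2561 bases from the metal transporter gene Mvl, with 192 FPKM in 20E and 80.8 FPKM in DMSO. CG11170, at 15.7 FPKM in 20E and 10.04 FPKM in DMSO, shared a locus with CG30279, which had 4.03 FPKM in 20E and 1.07 FPKM in DMSO. The bounds of CG30279 overlapped (0 and 13.0 in 20E, 0 and 4.70 in DMSO), while those of the other neighbours were apart. Only 3 of the 10 moderate genes, namely Su(var)3-3, gpp and CG8642, had bounds apart. The part of the neighbours' RNA in the values of the moderate genes was not tested.

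Another moderate gene was in the locus or at most 10 kb away for 8 of the 83 (9.64%), against 3.64% of all genes. They form 4 pairs: CG18031 with CR43637 in 1 locus, CG31777 with CG31778 at 1088 bases, CG6074 with eater at 3308 bases, and CG9733 with CG18404 at 6478 bases. The partners not yet described had 3.23 FPKM in 20E and 1.43 FPKM in DMSO for CG31778, 1.15 FPKM in 20E and 0.386 FPKM in DMSO for CG18404 and 13.2 FPKM in 20E and 6.97 FPKM in DMSO for CR43637. By chromosome arm, 17 of the genes were on 2L, 18 on 2R, 16 on 3L, 18 on 3R and 14 on X, at 16.9% to 21.7% of the group, where all genes had 15.2% to 23.5% on these arms.

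**Figure D4:**
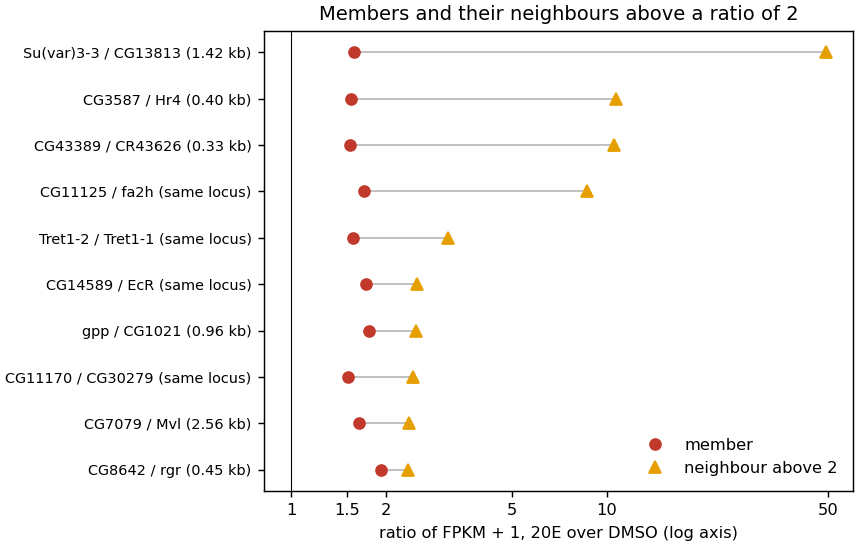
Ratio of FPKM + 1 between 20E and DMSO (horizontal, log axis) for the 10 moderate genes (circles) that have a gene above a ratio of 2 (triangles) in the locus or at most 10 kb away, with the distance in brackets. Both groups were chosen by this ratio, so the gap between them is set by the choice. The highest neighbour is CG13813, with a ratio of 49.2.

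Most of the genes had a single transcript in the transcript table (54 of 83), and 29 had several, with up to 11 for spri. In those 29, the transcript with the largest difference carried a median of 77.2% of the gene's difference (quartiles 61.2% and 92.0%), and in 15 of them some transcript was lower in 20E. The table has no bounds for transcripts, so these values carry no measure of precision. For raw, FBtr0303868 had 14.7 FPKM in 20E and 5.96 FPKM in DMSO, and FBtr0079746 had 20.6 FPKM in 20E and 14.5 FPKM in DMSO. In Glut4EF, FBtr0112577 made nearly the whole difference, with 6.36 FPKM in 20E and 2.42 FPKM in DMSO. The 9 transcripts of Mnt were led by FBtr0070579, which had 1.72 FPKM in 20E and is listed at 0 in DMSO. For blot the transcripts went opposite ways, since FBtr0075232 had 2.13 FPKM in 20E and 0.399 FPKM in DMSO, while FBtr0075234 had 1.69e-05 FPKM in 20E and 0.488 FPKM in DMSO.

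**Figure D5:**
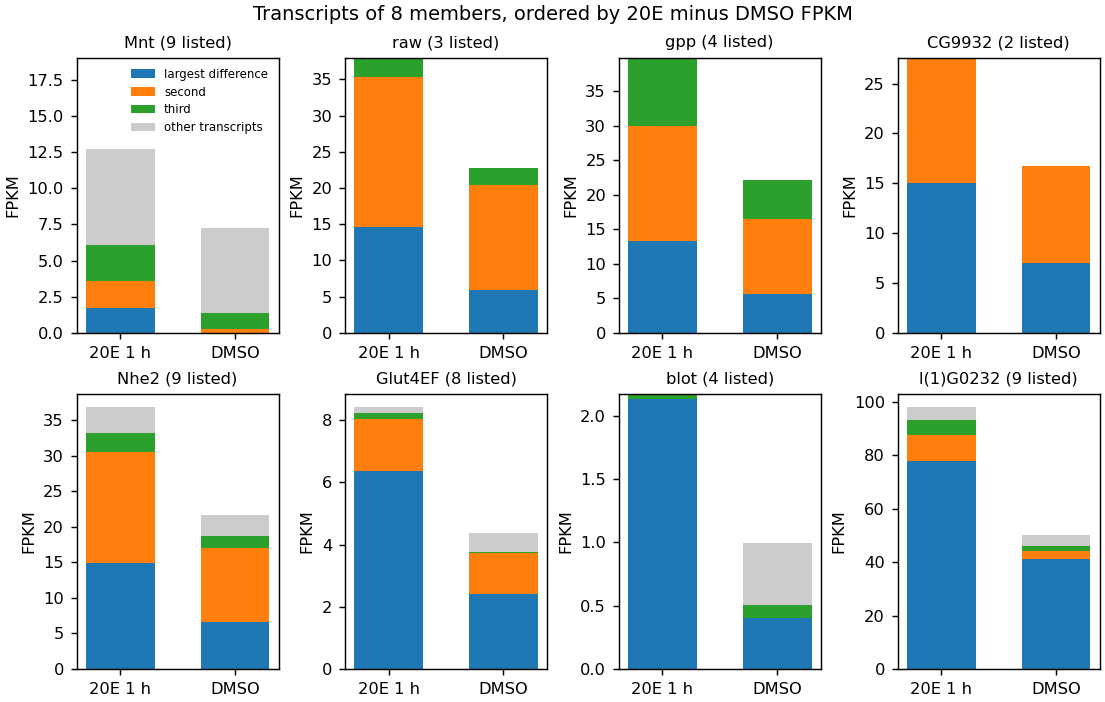
FPKM of the transcripts of 8 moderate genes in 20E and in DMSO (vertical, stacked), with the 3 transcripts of largest 20E minus DMSO difference in colour and the rest in grey. In l(1)G0232 the largest difference belongs to FBtr0071406 (78.0 FPKM in 20E and 41.1 FPKM in DMSO), and in CG9932 to FBtr0089956 (15.0 FPKM in 20E and 7.01 FPKM in DMSO).

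The sequence before the start of the genes was searched for the letters of ecdysone receptor hexamers, which the choice of genes did not use. Only the start of the whole gene was used, and the starts of separate transcripts were not searched. RefSeq starts in Release 6 were found by gene identifier for 81 of the 83 genes, 34 of them with bounds apart, and for 14867 genes of the table. Within 250 bases before to 50 after the start, AGGTCA or its reverse complement TGACCT was present in 6 of the 81 (7.41%, all genes 6.03%), and GGTTCA or TGAACC in 10 (12.3%, all genes 8.60%). Of the 34 genes with bounds apart, 7 (20.6%) had GGTTCA or TGAACC and 2 (5.88%) had AGGTCA or TGACCT. Of 39 genes above a ratio of 2, 2 (5.13%) had GGTTCA or TGAACC and 0 had AGGTCA or TGACCT. Any of these 4 hexamers was present in 16 (19.8%) of the 81, in 9 (26.5%) of those with bounds apart, in 5.13% of genes above a ratio of 2 and in 14.1% of all genes. An inverted repeat of 2 of them with 1 base between was present in 0 of the 81 and in 0.0135% of all genes. This search needed 2 exact hexamers and would miss the imperfect repeats at which the receptor sits. The 0 therefore does not show that the genes lack such sites. TATAAA, the core of a TATA box, was present in 15 of the 81 (18.5%), in 9 of the 34 with bounds apart (26.5%), in 18 of 39 genes above a ratio of 2 (46.2%) and in 31.3% of all genes. A match is only a match of letters, without a test of the difference between the shares.

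The stretches of 60 bases around a hexamer are shown for 8 of the 9 genes with bounds apart that had one, as the most precise of the group (the one not shown is ltd), with the hexamer in capitals, on the strand of the gene and in Release 6 coordinates. The matches in the promoter window that read GGTTCA or TGAACC come first.
Nc (chr3L:9968388-9968447, plus strand, GGTTCA 64 bases before the start): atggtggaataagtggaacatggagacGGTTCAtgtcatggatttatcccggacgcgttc
Nhe2 (chr2L:21104457-21104516, plus strand, GGTTCA 84 bases before the start): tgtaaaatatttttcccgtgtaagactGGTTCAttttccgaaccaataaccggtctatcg
Pde11 (chr2L:18590404-18590463, minus strand, TGAACC 94 bases before the start): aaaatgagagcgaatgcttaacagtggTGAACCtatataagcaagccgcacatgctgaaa
l(1)G0232 (chrX:9659267-9659326, minus strand, TGAACC 154 bases before the start): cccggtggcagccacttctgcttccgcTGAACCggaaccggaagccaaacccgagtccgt
CG11652 (chr3L:11696934-11696993, minus strand, GGTTCA 3 bases before the start): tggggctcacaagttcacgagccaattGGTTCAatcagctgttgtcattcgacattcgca
CG9733 (chr3R:30246727-30246786, minus strand, GGTTCA 56 bases before the start): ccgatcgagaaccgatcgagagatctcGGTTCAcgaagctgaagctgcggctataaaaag
Those with AGGTCA or TGACCT were in blot and CG4586.
blot (chr3L:17421620-17421679, minus strand, AGGTCA 138 bases before the start): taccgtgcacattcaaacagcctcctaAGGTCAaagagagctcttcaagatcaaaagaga
CG4586 (chrX:6969838-6969897, plus strand, TGACCT 53 bases before the start): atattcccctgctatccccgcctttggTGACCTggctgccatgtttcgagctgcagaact
Hsp27 had none of the 4 hexamers in the 300 bases around its start, but within 1000 bases before the start there were 2. The nearer one is shown because an ecdysone response element upstream of this gene is long known.
Hsp27 (chr3L:9383489-9383548, plus strand, GGTTCA 547 bases before the start): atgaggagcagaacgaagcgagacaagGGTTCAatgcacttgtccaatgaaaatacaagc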

How the data were processed

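The RNA-seq tables compare S2 cells after 1 h of 0.3 µM 20E with cells given DMSO, with 2 libraries per condition by the labels. The authors deposited FPKM values for 15598 genes, with lower and upper bounds and a status, and for their transcripts, in 1 column per condition. How the 2 libraries entered a column is not given in the sources used here. The column names are those of Cuffdiff, and the submitters' processing notes name TopHat2, Bowtie2 2.3.4.2, bcl2fastq 2.17.1.14, deepTools 3.0.2 and the builds dm3 and dm6, with no role. The deposited transcript table also holds the authors' log2 fold changes, test statistics, p-values and q-values, which were not used. Because there are no replicate columns, limma was not run. It was tested on simulated data that the scripts found planted genes and neighbours.

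The genes, the gene lists and the classes of function were chosen with earlier results of these data known. Named with values were the genes with bounds apart, the 10 highest and 5 lowest in DMSO, the genes nearest the limits, members of the gene lists and genes with a neighbour, and other genes were chosen after their values were seen. A pseudocount of 1 was added to FPKM for ratios, which understates differences of low genes. Distances between genes come from the loci of the deposited table, whose build is not given. The start of a locus was increased by 1, after which 4059 of 8719 loci with 1 gene had the length of the BDGP6 gene. Promoters were read from RefSeq's Release 6 assembly by gene identifier, and transcript lengths from the BDGP6 annotation, which held 81 of the 83 genes by identifier. Whole-fragment steps in low FPKM values were sought after taking 180 bases off each transcript length. The 180 bases and the step of each condition were those that gave the highest share near a whole step. Alternatives were other pseudocounts, minimum levels, scalings, ranges of the ratio, distances and promoter windows. Scripts ran under Python 3.11.15 with pandas 2.3.3 and NumPy 2.4.6, and figures were drawn with Matplotlib 3.10.9.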

Additional observations from a re-analysis of the deposited data

How the results depend on the processing

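The number of genes in the moderate range depended on the settings. It was 83 as reported, 397 with a pseudocount of 0.1 (54 of the 83 among them), 152 with a pseudocount of 0.5 (72 of the 83), 46 with a mean of at least 5 FPKM, 129 for ratios from 1.4 to 2 and 47 for ratios from 1.6 to 2. Scaled to the summed FPKM it was 68, and 65 of the 83 were among them. The number with bounds apart, 34 as reported, was 24 to 34 over the 9 alternatives run for it. Counting only the same locus left 4 genes near a gene above a ratio of 2 (0.442% of all genes) and 2 near another moderate gene (0.692%), and a limit of 1 kb left 2 near another moderate gene (1.74%). The median DMSO level was 14.7 FPKM for genes with bounds apart and 10.2 FPKM with a mean of at least 1 FPKM. With 1000 bases before the start, a window chosen after seeing the data, 46.9% of the genes held a hexamer, as did 38.2% of those with bounds apart, 33.3% of genes above a ratio of 2 and 44.7% of all genes. No paired analysis was possible because the tables hold 1 column per condition, and leaving out a replicate was not run for the same reason. The lowest values, at or near 0 in DMSO, limit what the table can show, since their bounds often include 0.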
